A study of Mus musculus with 21 samples.

Results

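Single-nucleotide variants (SNVs) in solute carrier genes were examined in mouse embryonic stem cells (ESCs) and in tumours. A call was counted when the annotation placed it outside intergenic sequence and at least 1 of its gene names began with Slc followed by a digit. The rule found 297 distinct sites in 89 genes, out of 16971 gene-assigned sites and 19181 sites in all. The ESC lists held 37 of these sites in 29 genes (148 calls) and the tumour lists 263 sites in 76 genes (1336 calls), with 16 genes in both. All 89 names stood in the RefSeq gene table for the same mouse assembly, and all 297 positions lay inside the gene named. For 3 of the genes the name denotes a neighbour or partner of a carrier and not a carrier: Slc7a6os lies opposite Slc7a6, Slc4a1ap encodes an adaptor protein of an anion exchanger, and Slc9a3r2 encodes a scaffold protein of a sodium/proton exchanger.

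Genomic DNA from ESCs of the F1 cross written C57BL6X129S6F1 was captured and sequenced after culture in 5 media, with 2 libraries each, numbered 3 and 5. All media hold the cytokine LIF (1000 IU), to which SL adds 15% serum. In 2iL the base is N2B27, used without serum, with 2 kinase inhibitors, PD0325901 against MEK (1 µM) and CHIR99021 against GSK3 (3 µM). On the same base A2iL combines CHIR99021 (3 µM) with CGP77675 (1.5 µM), which inhibits Src-family kinases, and LCDM holds CHIR99021 (3 µM) with Dim and Mih (2 µM each, so written in the labels). These 4 were used on feeder cells, whereas 2iL-F is 2iL without them. Every ESC list was made against 1 control of mouse embryonic fibroblast (MEF) DNA. Tumours, of the same strain by label, came from mice that the series design describes as grown from ESCs through tetraploid complementation. Their 8 lists, made against 1 wild-type blood control, carry the names 2iL-P9 (1 library), A2iL-P9 (3), A2iL-P14 (1), LCDM-P9 (2) and 2iL-F-P9 (1). The labels explain neither P9 and P14 nor the numbers 3 and 5, and nothing states that libraries of a group came from separate cultures or animals, so p-values measure the spread between these libraries, which may be technical.

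Solute carriers are membrane proteins that move ions, metals, sugars, amino acids, nucleotides and other small molecules across the plasma membrane or the membranes of organelles. They are grouped into families by sequence, and the number after Slc names the family. Family 25 holds the carriers of the inner mitochondrial membrane. Families 4, 9, 12 and 26 exchange or cotransport inorganic ions, families 2, 5 and 45 include sugar transporters, and families 6, 7, 38 and 43 include amino acid transporters.

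The lists are not equivalent. ESC libraries held 1041 to 1108 gene-assigned calls each, with a median depth of 54 to 72 reads, and none carried a dbSNP identifier. No ESC list held 2 calls within 10 kb (smallest gap 10017 bp), so a site next to another call can be missing from a list without being absent from the cells. In tumours the smallest gap was 1 bp, and 7 libraries held 9533 to 10076 gene-assigned calls at median depths of 28 to 38 reads, while LCDM-P9 replicate 2 held 3558. That tumour stood apart in list length and is described separately. In the tests per library it counts among the other P9 tumours. For these reasons ESC and tumour numbers were not tested against each other. In the sources used here the tumours are tied both to exome sequencing and to ATAC-seq, so their assay is unsettled. Names inside the 2iL-P9 and 2iL-F-P9 tumour lists differ from the labels, and an exchange of these 2 tumours is possible.

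In the ESC lists solute carrier genes made up 1.47% of the gene-assigned sites (37 of 2510). In the tumour lists the share was 1.8% (263 of 14644). Of protein-coding RefSeq genes, 1.71% have such a symbol (375 of 21896), and these genes span 1.81% of summed gene length. The share of sites thus lay near the share of genes in both sets.

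Among the 37 ESC sites, 23 were intronic (62.2%, against 53.3% of all gene-assigned ESC sites) and 12 coding (32.4%, against 29.2%). One each lay in a 5′ and a 3′ untranslated region. Of the 12 coding sites 7 were missense, which change an amino acid, and 5 synonymous. The missense share was 58.3%, against 53.7% of all coding ESC sites (54.8% with stop changes). Classed by the family number in the symbol, mitochondrial carriers held the most sites, 12 in 7 genes with 4 missense and 3 synonymous changes, followed by the inorganic ion class with 11 sites in 8 genes, of which 1 was missense and 1 synonymous. The amino acid class held 6 sites (2 missense, 1 synonymous), the sugar class 3, the metal and organic ion classes 2 each, and the nucleoside transporter Slc28a2 1 site. These classes include the genes named after a partner, so 1 missense site of the amino acid class is that of Slc7a6os, and 1 inorganic ion site is that of Slc9a3r2.

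Across libraries, 8 of the 37 sites were called in all 10 ESC lists (21.6%, against 17.5% of all gene-assigned sites). A further 17 were called in 1 library (45.9%, against 34.3%) and 12 in 2 to 9. The 8 shared sites were better covered than the rest: their median depths ran from 46.5 to 103.5 reads, whereas 13 of all 37 sites had a median depth under 20 reads (35.1%, against 28.2%). Among the 17 sites of 1 library, 7 had at least 5 alternative reads. Segmental duplications held 5 of the 37 sites (13.5%, against 31.3%) and repeats 8 (21.6%, against 21.2%). The MEF control held an alternative read at 3 of the 37 sites (8.11%, against 6.33%), never more than 1 read.

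**Figure D1:**
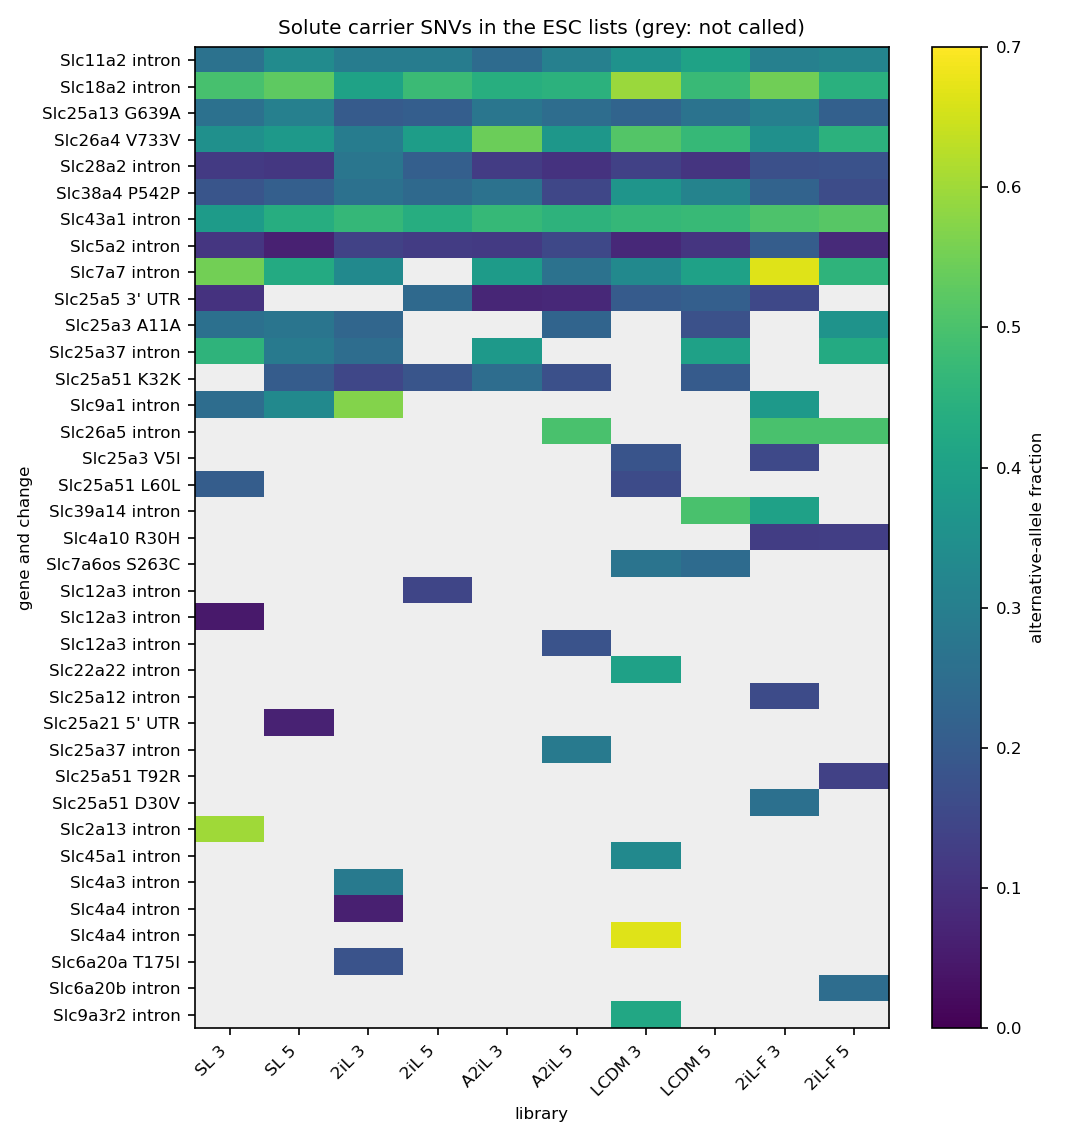
Alternative-allele fraction (colour, 0 to 0.7) of the 37 solute carrier sites (rows) in the 10 ESC libraries (columns), grey where the site was not called. The top 8 rows are filled in all 10 columns, and 17 rows have a single filled cell.

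Of the 8 sites called in all 10 libraries, 1 changes a protein. It lies in Slc25a13, the aspartate/glutamate carrier of mitochondria, on chromosome 6 at position 6042258 (mm10, exon 18), where C-to-G predicts G639A. The alternative-allele fraction, the share of allele reads with the new base, was 0.262 and 0.304 in SL, 0.200 and 0.210 in 2iL, 0.275 and 0.250 in A2iL, 0.226 and 0.267 in LCDM, and 0.301 and 0.216 in 2iL-F (libraries 3 and 5 in this order). The MEF control held 0 alternative reads of 65, which allows a fraction of up to 4.62%. Every library exceeded that limit. The 2iL libraries were the 2 lowest, and the ranges of the other 4 conditions overlapped. An exact permutation F test across conditions did not pass at this site (p = 0.334, adjusted p = 0.751).

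Both synonymous changes among the 8 lay in transporters of the plasma membrane. Slc26a4, the anion exchanger pendrin, had V733V (chromosome 12, position 31525487, exon 19) at fractions of 0.293 to 0.542 with a median of 0.386. Slc38a4, a sodium-coupled amino acid transporter, had P542P (chromosome 15, position 96997008, exon 16) at 0.150 to 0.364 with a median of 0.231. In Slc38a4 the LCDM libraries (0.364 and 0.313) were above the other 8, which lay between 0.150 and 0.265. Across conditions this site did not pass an exact permutation F test (p = 0.157, adjusted p = 0.600). Such orderings were not counted over all sites, so this one has no background.

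The other 5 shared sites were intronic. Slc18a2, the vesicular monoamine transporter, had G-to-T at chromosome 19, position 59274607, with fractions from 0.402 to 0.596 (median 0.476) and 0 of 117 control reads. Slc43a1, an amino acid transporter for large neutral residues, had T-to-G at chromosome 2, position 84849923, at 0.385 to 0.517 (median 0.466). These were the 2 highest medians of the 8 sites. Slc11a2, the divalent metal transporter of iron uptake, had A-to-G at chromosome 15, position 100406272, at 0.245 to 0.404 (median 0.304). The MEF control held 1 alternative read of 123 in Slc43a1 and 1 of 62 in Slc11a2, the only shared sites with one. Slc5a2, the sodium/glucose cotransporter of the kidney tubule, had the lowest median of the 8, 0.116, with a range of 0.063 to 0.206 for G-to-A at chromosome 7, position 128269777.

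Slc28a2, a sodium-coupled nucleoside transporter, had the smallest limma p of the 8 sites. Its intronic C-to-T change at chromosome 2, position 122456506, lies in an annotated segmental duplication, where reads of similar copies can be misplaced. Fractions were 0.118 and 0.113 in SL, 0.274 and 0.213 in 2iL, 0.125 and 0.103 in A2iL, 0.135 and 0.109 in LCDM, and 0.170 and 0.175 in 2iL-F. Both 2iL libraries lay above the other 8, and both 2iL-F libraries above the SL, A2iL and LCDM libraries. In Slc11a2 the LCDM libraries (0.357 and 0.404) were likewise the highest, and in Slc43a1 the 2iL-F libraries (0.505 and 0.517). How many of all sites show such an ordering was not counted. Allele log ratios of all 636 sites called in all 10 libraries were fitted with limma's moderated F test (Benjamini-Hochberg adjustment over 636). Only 439 gene-assigned sites were called in all 10 libraries, so the 636 include intergenic sites. The fit called 3.62% of the 636 sites (23) and 0 of the 8 solute carrier sites. Slc28a2 came nearest, with a limma adjusted p of 0.0704 (unadjusted 0.0031, exact permutation p = 0.0127). The limma adjusted p was 0.0557 with at least 20 reads in every library and 0.104 on an arcsine square root scale. By the exact permutation F test it was 0.367 after adjustment. One of the 8 had an unadjusted p under 0.05, against 13.4% of all sites fitted. By the exact permutation F test Slc43a1 also had an unadjusted p under 0.05 (p = 0.0116, limma p = 0.266). Neither site passed after adjustment. The 13.4% is the limma share and gives no background for the exact permutation F test. The smallest p of that test is 0.00106, which after adjustment over 636 sites could pass only if many sites shared it.

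The remaining 6 missense sites were each found in 1 or 2 libraries. Slc7a6os S263C (chromosome 8, position 106202236, exon 4) was in both LCDM libraries, in 36 of 134 and 33 of 135 allele reads, with 0 of 152 in MEF. Slc4a10 encodes a bicarbonate transporter coupled to sodium, and its R30H change (chromosome 2, position 62158246) was in both 2iL-F libraries, in 8 of 63 and 11 of 85 reads, with 0 of 87 in MEF. These 2 were the only solute carrier sites restricted to 1 condition and present in both its libraries (5.41%, against 2.39% of all gene-assigned ESC sites). None of the other libraries had any call within 10 kb of either.

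Slc6a20a T175I (chromosome 9, position 123660453, exon 4) was called in 2iL library 3, in 20 of 111 reads. Its fraction was 0.180 (95% Wilson interval 0.120 to 0.262), and MEF held 0 alternative reads of 112. Slc6a20a encodes a transporter of proline and related imino acids and has a neighbouring paralogue, Slc6a20b. Whether reads of the paralogue entered this call was not tested. Read intervals here and below cover counting error only, since PCR copies are not independent molecules.

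The other 3 missense sites lay beside synonymous sites of the same gene. Slc25a51, the mitochondrial carrier of NAD+, had 4 coding sites within 186 bp on chromosome 4, in exon 3 and in a segmental duplication. Each of the 10 ESC lists held exactly 1 of them. K32K (position 45400042) was called in SL library 5, both 2iL, both A2iL and LCDM library 5, at 0.150 to 0.250. L60L (position 45399958) was called in SL library 3 (0.207) and LCDM library 3 (0.159). The 2iL-F libraries held the missense sites: D30V (position 45400049) in library 3, in 22 of 85 reads, and T92R (position 45399863) in library 5, in 11 of 82 reads. MEF had 0 alternative reads at all 4 sites, at depths of 54 to 65. Since no list holds 2 calls within 10 kb, at most 1 of the 4 could appear in a list, and whether the other 3 were present in a library cannot be read from these data.

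**Figure D2:**
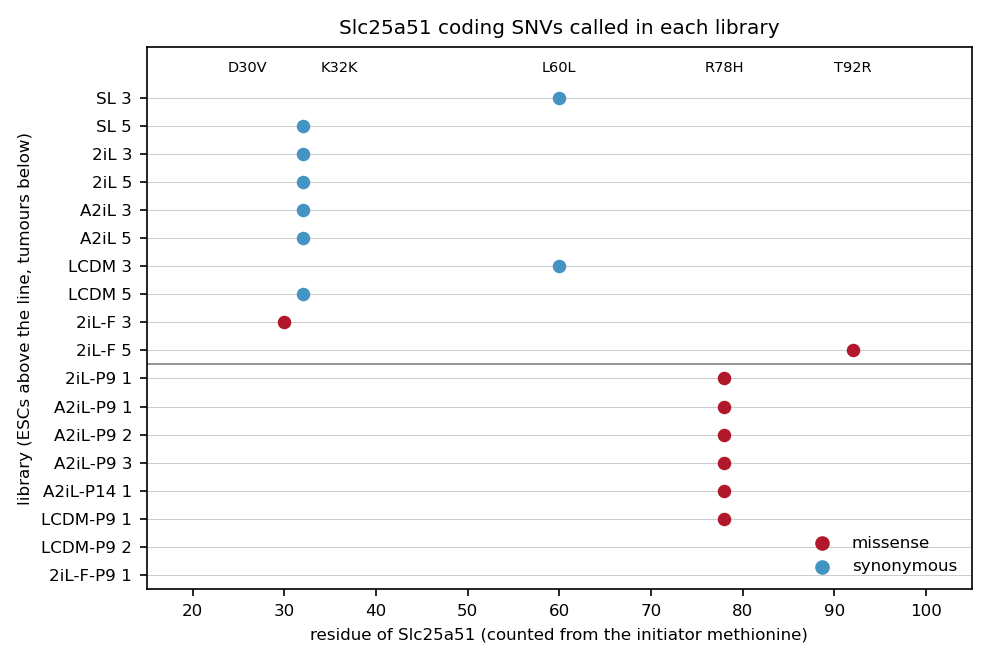
Residue of Slc25a51 affected (x axis, counted from the initiator methionine) by the coding call of each library (rows, ESCs above the line and tumours below), red for missense and blue for synonymous. Each ESC row has exactly 1 point, the 2 red ESC points are the 2iL-F libraries, and 6 tumours share R78H.

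Slc25a3, the mitochondrial phosphate carrier, showed the same arrangement on chromosome 10 in exon 2. A11A (position 91123670) was called in 6 libraries at 0.174 to 0.359, and V5I, 20 bp away at position 91123690, in LCDM library 3 (4 of 22 reads) and 2iL-F library 3 (4 of 26). No library held both. At V5I MEF had 0 alternative reads at a depth of 22, which allows up to 13.6%. The Wilson intervals of both V5I calls (lower ends 0.0731 in LCDM library 3 and 0.0615 in 2iL-F library 3) include that limit. Slc25a37, the mitochondrial iron importer mitoferrin, had 2 intronic sites 2 bp apart in a repeat, called in 7 libraries and never together. Slc12a3, the thiazide-sensitive sodium chloride cotransporter, had 3 intronic sites within 9729 bp, each in a different library. Support for them was weak: base quality was 21 in 2iL library 5 and 18 in A2iL library 5, and the fraction in SL library 3 was 0.047. Slc25a37 and Slc12a3 were singled out after their values were seen.

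Restriction to 1 condition was counted for 19 of the 37 sites (51.4%, against 36.7% of gene-assigned ESC sites). LCDM and 2iL-F had 5 each, 2iL 4, SL 3 and A2iL 2. Those free of any neighbouring call (10 kb) from the other libraries were 5 in LCDM, 3 in 2iL-F, 3 in 2iL, 2 in SL and 0 in A2iL. Missense changes made up 3 of the 5 in 2iL-F (Slc4a10 R30H, Slc25a51 D30V and T92R), 1 of 5 in LCDM (Slc7a6os S263C), 1 of 4 in 2iL (Slc6a20a T175I) and 0 of 3 in SL and 0 of 2 in A2iL. Both Slc25a51 sites have a call of every other library within 10 kb, so their restriction to 2iL-F cannot be read from these lists. Counts by condition were not made over all gene-assigned sites, so these numbers have no background. In LCDM 4 of the 5 sites had a depth under 20 reads, against 1 in each of the other conditions.

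Per library the number of solute carrier calls was 16 and 14 in SL, 16 and 11 in 2iL, 12 and 15 in A2iL, 17 and 15 in LCDM, and 17 and 15 in 2iL-F. The ranges overlapped, and condition means differed by at most 2.5 calls (exact permutation test of F over 945 partitions, p = 0.651, adjusted p = 0.813 over 5 measures). That difference was 5 calls without 2iL replicate 3, 4 without A2iL replicate 5, and 1 with at least 20 reads or at least 5 alternative reads, with exact p of 0.222 or more each time. The share among gene-assigned calls ran from 0.993% to 1.57% (p = 0.469, adjusted p = 0.781, same exact test). Private calls, those found in 1 library, numbered 0 to 4 per library (exact p = 0.975). The median fraction over a library's solute carrier calls was 0.260 and 0.295 in SL, 0.238 and 0.268 in 2iL, 0.270 and 0.250 in A2iL, 0.333 and 0.313 in LCDM, and 0.301 and 0.317 in 2iL-F. LCDM was highest on average (0.323 ± 0.0141, SD, n = 2) and 2iL lowest (0.253 ± 0.0209, SD, n = 2), with an exact permutation p of 0.0497 that did not hold after adjustment (0.124).

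Missense changes made up 4 of 6 and 3 of 6 coding solute carrier calls in the 2iL-F libraries, 3 of 6 and 2 of 6 in LCDM, 2 of 6 and 1 of 4 in 2iL, 1 of 4 and 1 of 5 in A2iL, and 1 of 5 in each SL library. Means by condition ran from 20% in SL to 58.3% in 2iL-F, with 95% Wilson intervals of 30.0 to 90.3% for the highest library and 3.62 to 62.4% for the SL libraries. The exact permutation test gave p = 0.0254 and an adjusted p of 0.124. Over all genes the protein-changing share of the same libraries lay between 50.5% and 53.5%. With only calls of at least 5 alternative reads the adjusted p was 0.0317 (exact permutation test). Without the Slc25a51 and Slc25a3 calls, genes of which a list shows 1 coding site at most, the largest difference between condition means fell to 16.7 percentage points, against 38.3 with them, and the exact permutation p was 0.238 (adjusted 0.595, an alternative chosen after seeing the data). Outside segmental duplications and repeats the difference was 25 points (exact p = 0.149).

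**Figure D3:**
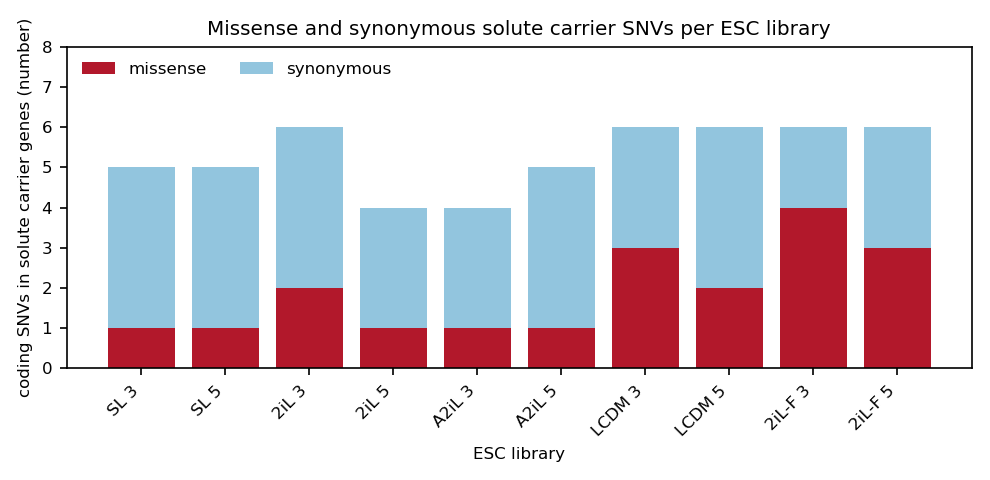
Number of coding solute carrier calls per ESC library (y axis), missense in red and synonymous in light blue stacked above. The 2iL-F libraries hold 4 and 3 missense calls and the SL and A2iL libraries 1 each.

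Of the 263 tumour sites, 178 were intronic (67.7%, against 66.5% of all gene-assigned tumour sites), 69 coding (26.2%, against 24.5%), 9 in 3′ and 6 in 5′ untranslated regions and 1 at a splice site. The coding sites were 22 missense and 47 synonymous. Missense sites were 31.9% of coding sites, against 31.3% over all genes (31.6% with stop changes). No stop-gain or stop-loss call fell in these genes. A dbSNP identifier, meaning a listed variant of mouse strains, was missing for 13 sites (4.94%, against 4.65%), among them 5 of the 69 coding sites (7.25%, against 6.63%). One site lay in a segmental duplication (0.380%, against 3.89%). Slc25a12, a paralogue of Slc25a13, held the most sites (10), followed by Slc10a2, Slc27a6, Slc5a2 and Slc9b2 with 9 each. By family number, the sugar class held 70 sites with 1 missense, the inorganic ion class 63 with 6, the organic ion class 37 with 6, the amino acid class 32 with 1, mitochondrial carriers 27 with 3, other carriers 18 with 3 and the metal class 16 with 2. These classes follow the family and not the substrate of each gene: the sugar class includes Slc5a6 and Slc5a7. The adaptor gene Slc4a1ap gave 3 of the 6 missense sites of the inorganic ion class.

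Most tumour sites recurred: 145 of 263 (55.1%, against 51.2%) were called in all 7 tumours other than LCDM-P9 replicate 2. Sites of a single tumour numbered 63 (24.0%, against 26.3%), and 38 of them belonged to LCDM-P9 replicate 2 (14.4% of the 263, against 20.7%). In the 7 tumours a list held 179 to 193 solute carrier calls in 59 to 62 genes, with a median fraction of 0.417 to 0.456 and dbSNP identifiers on 95.6 to 97.8% of calls. The blood control held 1 alternative read, never more, at 79 of the 263 sites (30.0%, against 31.0%), which made up 34.9 to 39.1% of the calls of these 7 tumours.

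A dbSNP identifier was lacking for 4 missense sites (18.2% of the 22, against 11.9% over all genes) and for 1 synonymous site (2.13% of the 47, against 3.99%), Slc38a4 P542P. The 4 missense sites had medians between 0.071 and 0.184. The 18 missense sites with an identifier had medians between 0.174 and 1. Slc6a20a T175I, the change seen in 2iL ESC library 3, was called in 6 tumours, all but A2iL-P9 replicate 2 and LCDM-P9 replicate 2. Fractions were 0.200 and 0.200 in A2iL-P9 replicates 1 and 3, 0.158 in 2iL-P9, 0.148 in LCDM-P9 replicate 1, 0.179 in 2iL-F-P9 and 0.189 in A2iL-P14. Blood had 1 alternative read of 70. Depths were 88 to 139 reads, and the 6 values lay between 0.148 and 0.200.

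Slc25a51 R78H (chromosome 4, position 45399905, exon 3) lies between the ESC sites T92R and L60L, in the same segmental duplication. It was called in 6 tumours, at 0.080, 0.081 and 0.098 in A2iL-P9, 0.063 in 2iL-P9, 0.119 in LCDM-P9 replicate 1 and 0.060 in A2iL-P14, with 1 alternative read of 54 in blood. Each value rests on 5 to 8 alternative reads. Lower ends of the 95% Wilson intervals ran from 0.0257 in A2iL-P14 to 0.0618 in LCDM-P9 replicate 1. No interval was computed for the blood read, so separation of R78H from blood was not tested. Slc11a2 T193S (chromosome 15, position 100405774, exon 7) was called in A2iL-P9 replicate 3 (6 of 49 reads), 2iL-P9 (6 of 58) and 2iL-F-P9 (4 of 46), with 0 of 52 in blood. That control allows up to 5.77%, and the 95% Wilson intervals of these calls (lower ends 0.0573, 0.0483 and 0.0343) include it. Slc13a2 W9R (chromosome 11, position 78422143, exon 1), in a sodium-coupled dicarboxylate transporter, was called in A2iL-P9 replicate 2 alone, in 5 of 70 reads, a fraction of 0.071 (95% Wilson interval 0.031 to 0.157). Blood had 0 of 96 there, which allows up to 3.12%. The interval of the tumour includes that limit.

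**Figure D4:**
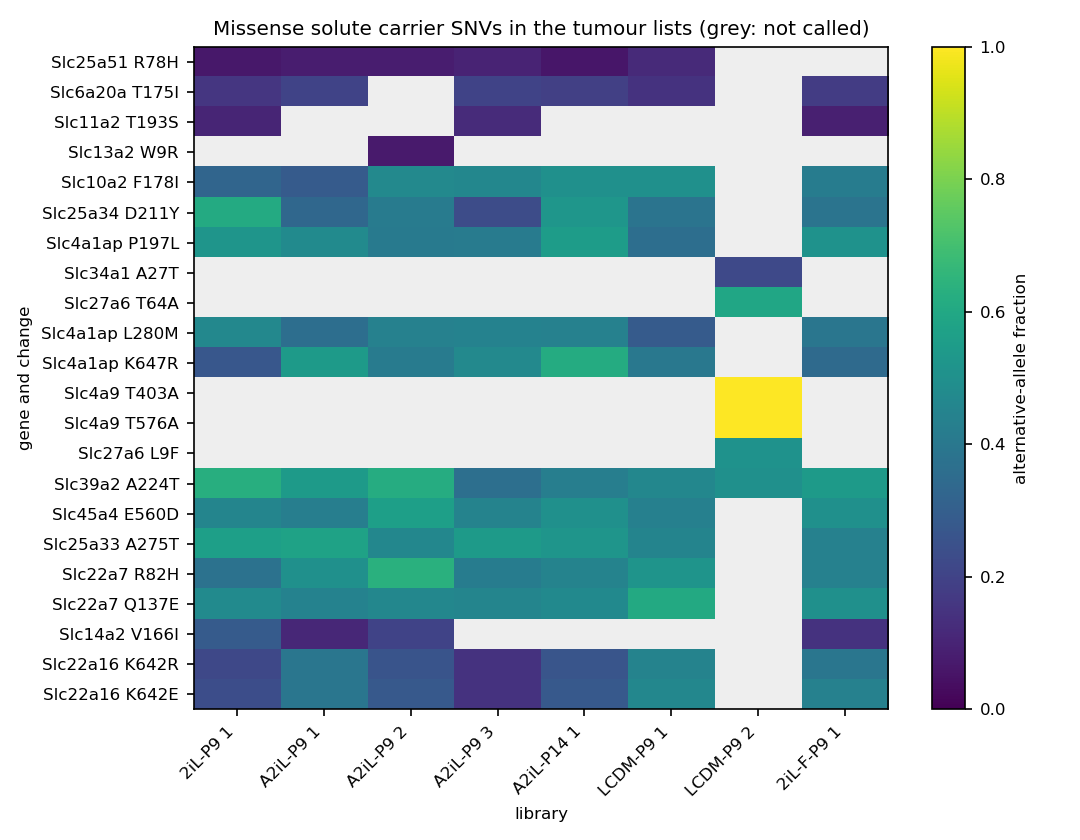
Alternative-allele fraction (colour, 0 to 1) of the 22 missense solute carrier sites (rows) in the 8 tumour libraries (columns), grey where not called. The top 4 rows lack a dbSNP identifier and are dark, and the LCDM-P9 2 column holds 6 sites, of which 5 are empty in every other column.

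The genes with most missense sites were Slc4a1ap with 3 and Slc22a16, Slc22a7, Slc27a6 and Slc4a9 with 2 each. Slc4a1ap P197L, L280M and K647R (chromosome 5, positions 31527611, 31528217 and 31543896) were called in the same 7 tumours at 0.270 to 0.615. Slc22a7, an organic anion transporter of liver and kidney, had Q137E at 0.444 to 0.609 and R82H at 0.375 to 0.636 on chromosome 17, again in 7 tumours. Slc22a16, a carnitine transporter, had K642E and K642R at neighbouring bases of 1 codon (chromosome 10, positions 40603920 and 40603921). Their fractions went together within each tumour, from 0.148 at both sites in A2iL-P9 replicate 3 to 0.462 and 0.447 in LCDM-P9 replicate 1. Each of the 2 protein changes was annotated on its own, so the residue coded when both bases change is not given by the lists.

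The splice site call lay in Slc39a14, a zinc and iron importer (G-to-A, chromosome 14, position 70310978, rs217765474). It was called in 7 tumours at 0.293, 0.245 and 0.348 in A2iL-P9, 0.379 in 2iL-P9, 0.240 in LCDM-P9 replicate 1, 0.216 in 2iL-F-P9 and 0.246 in A2iL-P14, with 1 alternative read of 68 in blood. All 7 values were under 0.400. Slc39a2, a zinc importer, was the only solute carrier gene with the same site called in all 8 tumours, which held for 2 of the 263 sites (0.760%, against 2.47%). One of these sites predicts A224T (chromosome 14, position 51895271), at 0.367 to 0.625, and the other, at position 51893713 in the 5′ untranslated region, ranged from 0.375 to 0.564.

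LCDM-P9 replicate 2 had 40 solute carrier calls in 12 genes, 1.12% of its gene-assigned calls, against 1.87 to 1.96% in the other 7 tumours. All 40 carried a dbSNP identifier, against 95.2% of all its gene-assigned calls, and blood held an alternative read at 17.5% of them, against 17.0%. The calls came in runs: 17 lay on chromosome 18, 9 in Slc27a6 and 8 in Slc4a9. Slc27a6, a fatty acid transporter, had fractions of 0.433 to 0.592, with L9F in 51 of 100 and T64A in 90 of 152 reads. Slc4a9, an anion exchanger, had fractions of 0.952 to 1, with T403A in 42 of 42 and T576A in 19 of 19 reads. Both genes thus lay on the same chromosome at separate levels. Slc18a2 on chromosome 19 had 2 calls at 0.995 and 1, and Slc2a2, the glucose transporter of liver and pancreatic islets, had 7 calls on chromosome 3 at 0.406 to 0.517. In all, 11 of the 40 calls exceeded 0.9 (27.5%, against 48.8% of all gene-assigned calls of this tumour), whereas at most 2 did in any other tumour. The fifth private missense change was Slc34a1 A27T, in a renal sodium phosphate cotransporter, in 4 of 18 reads. All the other 7 tumours had a call within 10 kb of it.

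**Figure D5:**
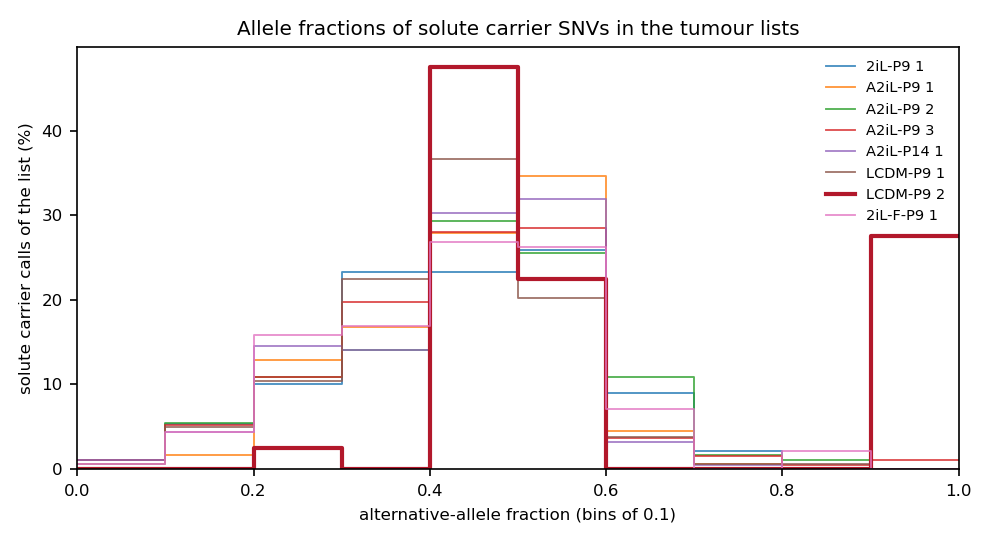
Share of solute carrier calls (y axis, %) by alternative-allele fraction in bins of 0.1 (x axis) for each of the 8 tumour libraries, with LCDM-P9 2 as the thick line. All 8 libraries peak between 0.4 and 0.6, LCDM-P9 2 with 47.5% of its calls in the bin from 0.4. That tumour also has 27.5% in the top bin, where the others hold at most 1.04%.

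A2iL-P9, the one tumour group with 3 libraries, was set against the other 4 P9 tumours by exact two-sided permutation tests (35 splits, smallest p 0.0286). Calls numbered 179, 184 and 193 in A2iL-P9, against 189 in 2iL-P9, 183 and 40 in LCDM-P9 and 183 in 2iL-F-P9, a difference of 36.6 (exact permutation p = 0.714, adjusted p = 0.886 over 4 measures). Without LCDM-P9 replicate 2 the difference was 0.333 calls (exact p = 1). The share of gene-assigned calls differed by 0.210 percentage points (exact p = 0.629), or 0.0164 without LCDM-P9 replicate 2. Median fraction (difference -0.00342, exact p = 0.886) and protein-changing share (-1.61 percentage points, exact p = 0.6) did not pass either. Without LCDM-P9 replicate 2 these differences were 0.0120 and -0.214. The A2iL-P14 tumour, with 185 calls and a median fraction of 0.447, lay inside the A2iL-P9 range in both, and just under it in the share of gene-assigned calls (1.871%, against 1.872 to 1.965% in A2iL-P9) and in the protein-changing share (30.4%, against 31.2 to 31.9%).

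Site by site, allele log ratios were compared at 7781 sites called in all 3 A2iL-P9 tumours and in 2iL-P9, LCDM-P9 replicate 1 and 2iL-F-P9. limma called 0% of them after adjustment, and 4.77% (371) had an unadjusted p under 0.05. Among the 147 solute carrier sites the counts were 0 and 9. The groups did not overlap at 12 of the 147 (against 9.28% of all sites fitted). Fractions were higher in A2iL-P9 at 77 of 147, against 4086 of all 7781 sites, with a median log2 ratio of 0.04 against 0.02 over all sites. The smallest p belonged to an intronic site of Slc13a4 (chromosome 6, position 35287945), named after its value was seen, at 0.770 ± 0.200 in A2iL-P9 and 0.481 ± 0.0321 in the other 3 (SD, n = 3 each), with a limma p of 0.00935 and an adjusted p of 0.969.

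ESC and tumour lists shared 3 solute carrier sites, 8.11% of the ESC and 1.14% of the tumour sites, against 7.29% and 1.25% over all genes. All 3 lacked a dbSNP identifier. Besides Slc6a20a T175I they were Slc38a4 P542P and the intronic Slc5a2 site, each in 10 ESC libraries and in 7 tumours. Slc38a4 had a tumour median of 0.250 (range 0.179 to 0.301), with 1 alternative read of 61 in blood. Slc5a2 had a tumour median of 0.111 (range 0.091 to 0.196), with 1 of 82 in blood. For these 2 sites the tumour values lay within the ESC range. LCDM-P9 replicate 2 had none of the 3 sites.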

How the data were processed

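Lists of single-nucleotide variants of 10 ESC and 8 tumour libraries were read; 3 of the 21 samples (MEF and 2 wild-type blood) had no list. BWA, SAMtools, Picard and mm10 are named in the submitters' processing notes; which caller made the lists is not given in sources used here. The deposited lists hold reads per allele, depth and alternative-allele fraction (other values) for library and control, with RefSeq, duplication, repeat and dbSNP 142 annotation, and every line was marked as passing and somatic. Capture used Agilent SureSelect, per the labels.

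From these, solute carrier calls were counted per library. Counts and shares were compared by exact permutation tests with Benjamini-Hochberg adjustment. Allele log ratios (pseudocount 0.5) were fitted with limma 3.58.1 in R 4.3.3, and calls needed an adjusted p under 0.05. On simulated shifts of 2 (log2) in 200 sites the fits recovered 84.5% (ESCs, 636 sites) and 61% (tumours, 7781 sites), and 0% at a shift of 1. False calls at a shift of 2 were 11 of 180 calls in ESCs and 3 of 125 in tumours. Simulated reads had counting error only, with no further spread between libraries, and more sites were shifted than the fits called. The recovered shares are thus not the power of the fits on the real lists. Absence of a call means only that no call passed the authors' filters, at the depths given.

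Members and lists were chosen with earlier results of these data known. Named in ESCs were genes with a protein-changing call, sites in all 10 libraries, sites in both libraries of 1 condition only, and sites shared with tumours. Named in tumours were protein-changing sites without a dbSNP identifier or in 1 tumour, splice sites, the 5 genes with most missense sites and genes leading by site count; others are marked. Alternatives covered depth, alternative reads, base quality, control reads, duplications, repeats, gene rule, scale and left-out libraries. Same-numbered libraries did not deviate together (correlations of -0.0278 to 0.0200 over calls and -0.103 to 0.0635 over allele log ratios). No sequence is shown: none of the 297 positions lay in a promoter window (250 bases before to 50 after a start).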

Additional observations from a re-analysis of the deposited data

Results flagged for a closer look

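Among the 4 P9 tumours other than A2iL-P9, LCDM-P9 replicate 2 lay far from the rest on both list measures. It had 40 solute carrier calls, against 183 to 189 in the other 3, a gap of 0.960 of the group's range. The solute carrier share of its gene-assigned calls was 1.12%, against 1.88 to 1.92%, a gap of 0.945 of the range. In 17 groups and measures checked this way, chance marks about 1 in 20.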

How the results depend on the processing

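Of 97 alternatives to the 5 ESC measures per library, 1 passed the threshold. It was for the protein-changing share of coding calls: with at least 5 alternative reads the conditions differed by 35 percentage points at most (adjusted p = 0.0317, exact permutation test). For that share the adjusted p ran from 0.0317 to 0.595 over all alternatives, and leaving out 1 library in turn gave differences of 30 to 46.7 points (adjusted p 0.143 to 0.310). Without Slc25a51 and Slc25a3 the difference was 16.7 points. Differences in the share of gene-assigned calls (0.264 points) reached 0.495 without 2iL replicate 3, those in private calls (1) reached 4 without LCDM replicate 5, and those in median fraction (0.0703) fell to 0.0405 with at least 5 alternative reads. With the library number as a replicate block the adjusted p of the share was 0.0833 and that of the median fraction 0.271 (exact permutation over 120 arrangements). The block changed no other call, and fitted to allele fractions it called 18 of 636 sites and 0 solute carrier sites. The ESC fit called 23 of the 636 sites fitted, and the exact permutation F test called 0. The smallest p of that test, 0.00106, leaves little room after adjustment. Neither called a solute carrier site. Tumour tests with 1 library left out have smallest p of 0.05 to 0.0667 and could not pass, and the full design has 0.0286 before adjustment, so that none passed says nothing about stability. The tumour difference in median fraction (-0.00342) turned to 0.0113 without control reads and 0.0120 without LCDM-P9 replicate 2, and that in protein-changing share (-1.61) to 3.36 with at least 20 reads. The cause was not tested. No block was run for the tumours, where only A2iL-P9 and LCDM-P9 share numbers. Tumour fraction and protein-changing share gave no value without dbSNP sites, since LCDM-P9 replicate 2 has only dbSNP sites. ESC sites numbered 23 with at least 5 alternative reads and 24 outside duplications and repeats (3 synonymous), and tumour missense sites 12 without control reads. Low depth limits these results: 13 of 37 ESC sites rest on a median under 20 reads. MEF depths of 8 to 152 reads allow control fractions of up to 1.97 to 37.5% at sites with 0 alternative reads. In tumours 176 of 263 sites had a median depth of at least 20 reads. Of the 25 sites called in 1 tumour other than LCDM-P9 replicate 2, 7 reached that depth and 5 had at least 5 alternative reads.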
